A study of Mus musculus with 4 samples.

Results

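Genes of the transforming growth factor beta (TGF-beta) pathway were followed in single-cell RNA-sequencing libraries of the mouse hindlimb after burn and tendon injury. The 9 genes, matched by symbol among the 27998 genes of the deposited feature tables, are the ligands Tgfb1, Tgfb2 and Tgfb3, the receptors Tgfbr1 and Tgfbr2, the intracellular mediators Smad3 and Smad7, and the matrix genes Tgfbi and Ltbp2. All 9 were found once in each table, and no cutoff on a level or ratio set their membership. They were chosen, however, with earlier results of these data known. TGF-beta ligands are secreted in a latent form that is held in the extracellular matrix. Once released, a ligand binds the type II receptor (Tgfbr2), which activates the type I receptor (Tgfbr1), and receptor-activated Smads, Smad3 among them, then carry the signal to the nucleus. The pathway is known in injured tendon and muscle for driving matrix deposition by fibroblasts, and for its part in forming bone in soft tissue after injury.

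There were 4 libraries at day 7 after a dorsal burn covering 30% of the body surface together with cutting of the left Achilles tendon. They came from the injured left limb of Ddr2 slie/slie mice, the uninjured right limb of the same Ddr2 slie/slie mice, the injured left limb of littermate controls and the uninjured right limb of the same controls. Slie is a spontaneous deletion in Ddr2, a collagen receptor, and the littermate controls are called WT in their library names, while the age and sex of the mice do not appear in the sources used here. Every mouse had been burned, so the uninjured limb is a limb without tenotomy in a burned animal, and each library pooled tissue of 2 mice, so each group is 1 library with no replicate. No difference between groups could therefore be tested. Intervals below are 95% intervals, exact Poisson for levels, exact conditional binomial for ratios and exact binomial (Clopper-Pearson) for shares, and they cover counting error only.

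Depth differed between the libraries and set what could be seen. Barcodes were kept from 200 genes upward when mitochondrial unique molecular identifiers (UMIs, each standing for 1 captured transcript) made up 20% or less. Of them, 246 cells remained in slie/slie injured, 184 in slie/slie uninjured, 751 in control injured and 60 in control uninjured, with 1010828, 1097002, 4032783 and 242888 UMIs in the same order. Hemoglobin made up 5.06%, 1.15%, 6.09% and 10.1% of these UMIs. Cells under 0.5% mitochondrial UMIs numbered 152 in slie/slie injured, 22 in slie/slie uninjured, 379 in control injured and 3 in control uninjured. A level is given in CPM, which sets a gene's UMIs against 1000000 UMIs of the cells considered. Each transcript was read from its 3' end, so gene length does not enter the count. Ddr2 itself (ENSMUSG00000026674, chr1:169972307-170110762, minus strand, build mm10) had 0 UMIs in slie/slie injured, which allows up to 2.97 CPM at 3 counts, against 115 UMIs or 28.5 CPM (23.5 to 34.2) in control injured, so it was at least 9.61-fold lower in slie/slie injured. In the uninjured limbs it had 2 UMIs in slie/slie, which came from 1 cell, and 3 UMIs in control, which do not separate the genotypes. The sources used here do not name the exons that slie removes, so 3' reads need not fall within the deletion.

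Cell classes were named from marker genes, and the word "like" marks them as rebuilt names. The injured limbs held 111 fibroblast-like cells in slie/slie and 308 in control, 19 and 51 pericyte or smooth muscle-like cells, 5 and 26 endothelial-like cells, and 17 and 113 monocyte or macrophage-like cells. The share of monocyte or macrophage-like cells was 6.91% (4.08 to 10.8) in slie/slie injured, against 15% (12.6 to 17.8) in control injured. In the uninjured limbs fibroblast-like cells numbered 10 in slie/slie and 3 in control. A cluster of 67 slie/slie uninjured cells had all 15 fibroblast markers but was led in part by muscle fibre genes, and stayed unnamed. Fewer cells of a type and less RNA per cell cannot be told apart in sums over whole libraries.

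The sequences just upstream of Tgfb1, Tgfbi and Ltbp2 are shown, 3 of the 4 genes past 1.5-fold in the injured limb of both genotypes, as described below; the other, Tgfb3, is named only. They run from 250 to 71 bases before the RefSeq transcript start in build GRCm38.p6 and are read 5′ to 3′ on the gene's strand. Tgfb1 lies on chromosome 7 (chr7:25686752-25686931, plus strand), Tgfbi on chromosome 13 (chr13:56609336-56609515, plus strand) and Ltbp2 on chromosome 12 (chr12:84876562-84876741, minus strand). The Ltbp2 window overlaps annotated exons, while the Tgfb1 and Tgfbi windows overlap no annotated exon. Capitals mark CAGAC and its reverse complement GTCTG, the core sequence that Smad3 is known to bind.
Tgfb1: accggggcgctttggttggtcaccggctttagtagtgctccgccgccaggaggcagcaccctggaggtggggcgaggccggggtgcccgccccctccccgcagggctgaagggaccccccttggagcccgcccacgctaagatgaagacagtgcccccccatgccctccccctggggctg
Tgfbi: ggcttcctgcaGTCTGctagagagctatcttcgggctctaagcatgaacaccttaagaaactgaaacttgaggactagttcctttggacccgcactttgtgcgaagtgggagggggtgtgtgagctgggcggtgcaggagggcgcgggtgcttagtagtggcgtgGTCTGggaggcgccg
Ltbp2: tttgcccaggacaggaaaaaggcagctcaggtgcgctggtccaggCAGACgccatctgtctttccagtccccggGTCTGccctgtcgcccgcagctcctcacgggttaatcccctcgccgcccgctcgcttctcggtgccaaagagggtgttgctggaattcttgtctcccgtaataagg
The Tgfbi and Ltbp2 windows hold 2 copies each and the Tgfb1 window 0, and that of Tgfb2, which was not higher in the injured limb, holds 2 as well. Of 32851 windows of the same length and position over all genes in the table, 33.2% hold at least 1 copy on either strand, so a match is common and is given as a description only. The table held 7 of the 9 genes.

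The ligands differed in how they stood between the limbs, and Tgfb1 (ENSMUSG00000002603, chr7:25687002-25705077, plus strand), the ligand that most cell types can make, was counted more often in the injured than in the uninjured limb in both genotypes. It had 102 UMIs in slie/slie injured, or 101 CPM (82.3 to 122), and 64 UMIs in slie/slie uninjured, or 58.3 CPM (44.9 to 74.5). In control injured it had 457 UMIs, or 113 CPM (103 to 124), and in control uninjured 7 UMIs, or 28.8 CPM (11.6 to 59.4). Both injured libraries stood above both uninjured ones, and the intervals did not overlap within a genotype. Tgfb3 (ENSMUSG00000021253, chr12:86056745-86079041, minus strand), a ligand known for its part in palate and tendon development, had 51.4 CPM (38.4 to 67.5) in slie/slie injured and 30.1 CPM (20.7 to 42.3) in slie/slie uninjured. In control it had 46.6 CPM (40.2 to 53.8) in the injured and 24.7 CPM (9.07 to 53.8) in the uninjured limb. The direction was the same, but the intervals overlapped in both genotypes. Tgfb2 (ENSMUSG00000039239, chr1:186622792-186705989, minus strand), a ligand known from heart and eye development, was nearly level across libraries, at 25.7 CPM (16.8 to 37.7) in slie/slie injured, 37.4 CPM (26.8 to 50.7) in slie/slie uninjured, 35.0 CPM (29.4 to 41.2) in control injured and 41.2 CPM (19.7 to 75.7) in control uninjured. All 4 of its intervals overlapped.

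**Figure D1:**
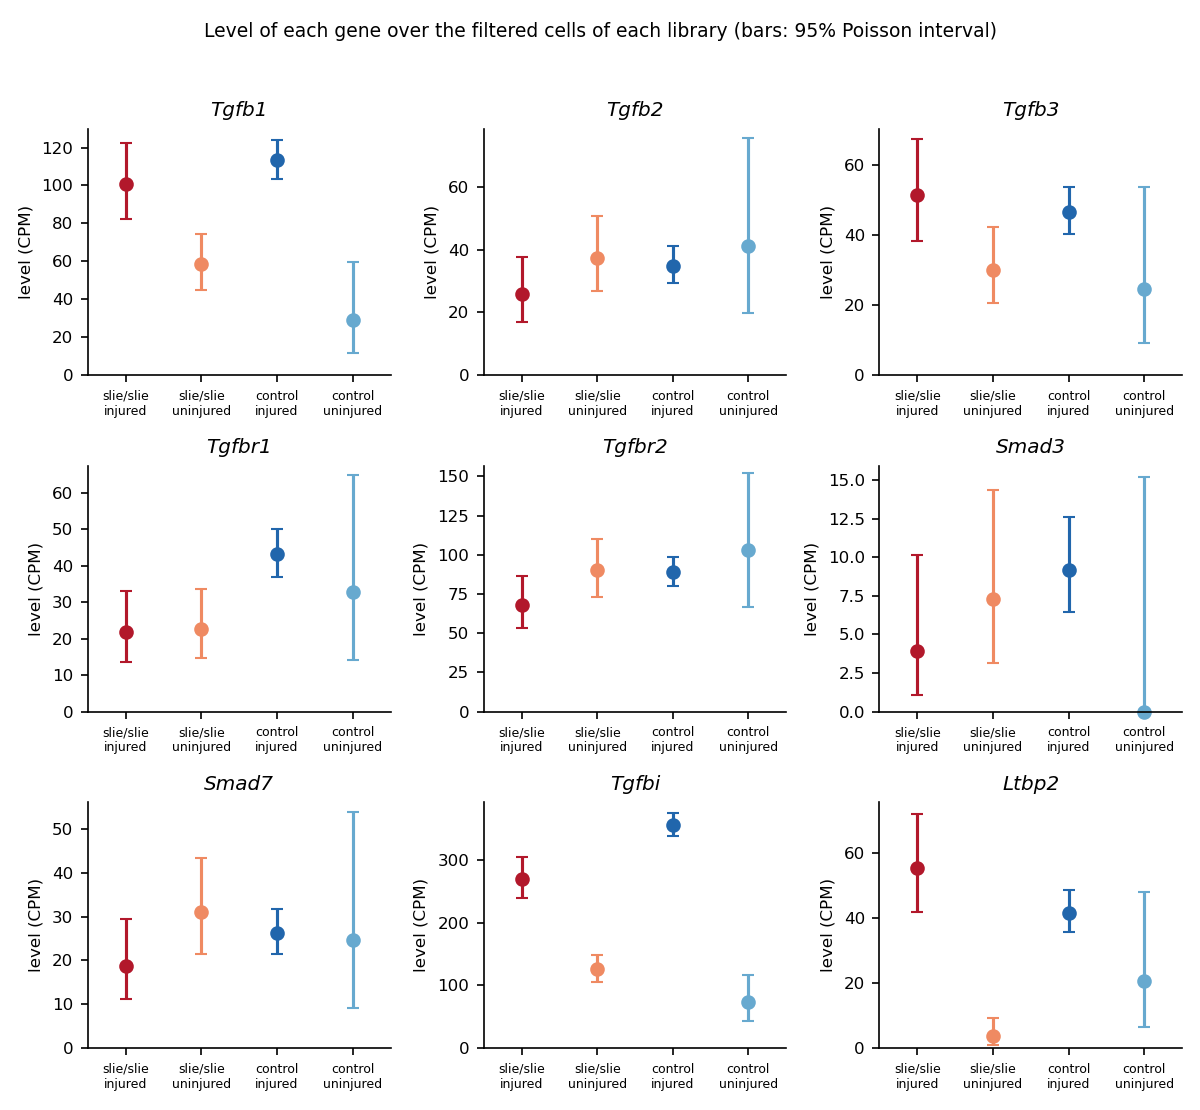
Level of each of the 9 genes in CPM (vertical axis, starting at 0, with its own range in each panel) over the filtered cells of each of the 4 libraries (horizontal axis), where points are the 4 libraries and bars 95% exact Poisson intervals. The injured libraries stand above the uninjured ones for Tgfb1 and Tgfbi, and Tgfbr1 stands at 43.1 CPM in control injured against 21.8 CPM in slie/slie injured.

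Unlike Tgfb1 and Tgfb3, neither receptor was past 1.5-fold in the injured limb of either genotype. Tgfbr1 (ENSMUSG00000007613, chr4:47353222-47414931, plus strand), the signalling type I receptor, had 22 UMIs or 21.8 CPM (13.6 to 32.9) in slie/slie injured, 25 UMIs or 22.8 CPM (14.8 to 33.6) in slie/slie uninjured, 174 UMIs or 43.1 CPM (37.0 to 50.1) in control injured and 8 UMIs or 32.9 CPM (14.2 to 64.9) in control uninjured. The slie/slie injured and control injured intervals did not overlap, whereas the control uninjured interval spanned all the others' values. Tgfbr2 (ENSMUSG00000032440, chr9:116084293-116175360, minus strand), the ligand-binding type II receptor, had 68.3 CPM (53.1 to 86.4) in slie/slie injured, 90.2 CPM (73.4 to 110) in slie/slie uninjured, 89.0 CPM (80.1 to 98.7) in control injured and 103 CPM (66.6 to 152) in control uninjured. Its lowest value was that of slie/slie injured, and the intervals overlapped.

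The Smads were sparse. Smad3 (ENSMUSG00000032402, chr9:63646767-63757994, minus strand), the receptor-activated mediator, had 4 UMIs in slie/slie injured, 8 in slie/slie uninjured, 37 in control injured and 0 in control uninjured, or 3.96, 7.29, 9.17 and 0 CPM. A count of 0 in control uninjured allows up to 12.4 CPM at 3 counts, which is above the level in every other library, so its absence there was not detectable at this depth. Smad7 (ENSMUSG00000025880, chr18:75367529-75395935, plus strand), the inhibitory Smad that is itself a target of the pathway, had 18.8 CPM (11.3 to 29.3) in slie/slie injured, 31.0 CPM (21.5 to 43.3) in slie/slie uninjured, 26.3 CPM (21.5 to 31.8) in control injured and 24.7 CPM (9.07 to 53.8) in control uninjured. All 4 intervals overlapped.

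Both matrix genes had higher levels in the injured limb of either genotype, with overlapping intervals for Ltbp2 in control. Tgfbi (ENSMUSG00000035493, chr13:56609523-56639562, plus strand), a secreted adhesion protein named for its induction by TGF-beta, had 273 UMIs or 270 CPM (239 to 304) in slie/slie injured, 138 UMIs or 126 CPM (106 to 149) in slie/slie uninjured, 1436 UMIs or 356 CPM (338 to 375) in control injured and 18 UMIs or 74.1 CPM (43.9 to 117) in control uninjured. In control uninjured, 17 of its 18 UMIs came from 1 cell. Ltbp2 (ENSMUSG00000002020, chr12:84783212-84876532, minus strand), a microfibril protein related to the latent TGF-beta binding proteins, had 56 UMIs or 55.4 CPM (41.8 to 71.9) in slie/slie injured, 4 UMIs or 3.65 CPM (0.994 to 9.34) in slie/slie uninjured, 168 UMIs or 41.7 CPM (35.6 to 48.5) in control injured and 5 UMIs or 20.6 CPM (6.68 to 48.0) in control uninjured. The 5 UMIs of control uninjured lay in 1 cell, and 22 of the 56 UMIs of slie/slie injured lay in 1 of the 11 cells with any.

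The 3 ligands differed in how widely they were spread over the cell classes of the injured limbs. Tgfb1 was present in each of the named immune and stromal classes, with 209 CPM (95.6 to 397) in the monocyte or macrophage-like cells of slie/slie injured and 238 CPM (204 to 275) in those of control injured. Neutrophil-like cells had 274 CPM (170 to 420) in slie/slie, with 12 of 21 UMIs in 1 cell, and 188 CPM (136 to 254) in control, and endothelial-like cells had 186 CPM (114 to 288) and 172 CPM (139 to 210). Fibroblast-like cells were lower, at 64.2 CPM (41.1 to 95.5) in slie/slie and 37.6 CPM (28.2 to 49.2) in control. Over the injured limbs of both genotypes, neutrophil-like cells had 210 CPM (162 to 269), monocyte or macrophage-like cells 236 CPM (204 to 272) and endothelial-like cells 174 CPM (143 to 209), so these neighbours in the order overlapped. Dendritic-like cells at 159.9 CPM (102 to 238) and pericyte or smooth muscle-like cells at 146 CPM (114 to 184) followed, and both overlapped endothelial-like cells.

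Tgfb3 and Tgfb2 were nearly restricted to fibroblast-like and pericyte or smooth muscle-like cells, with Tgfb2 also in endothelial-like cells. Tgfb3 had 93.6 CPM (65.2 to 130) in fibroblast-like cells of slie/slie injured and 92.3 CPM (77.2 to 110) in those of control injured, values that were nearly equal. In pericyte or smooth muscle-like cells it had 137 CPM (76.8 to 226) in slie/slie and 144 CPM (108 to 187) in control. It had 0 UMIs in the 31 endothelial-like cells of the injured limbs, where the Poisson interval ends at 5.68 CPM, and 1 UMI in the 130 monocyte or macrophage-like cells. Tgfb2 had 53.5 CPM (32.7 to 82.6) in fibroblast-like cells of slie/slie injured and 53.3 CPM (41.9 to 66.8) in those of control injured. Both ligands had 0 UMIs in the 189 neutrophil-like and 60 dendritic-like cells. Among ligand UMIs of the injured limbs, Tgfb1 took 30.4% (20.5 to 41.8) of the 79 in fibroblast-like cells of slie/slie and 20.5% (15.8 to 26.0) of the 258 in those of control, while it took all 9 in monocyte or macrophage-like cells of slie/slie and 182 of 183 in those of control. Those shares assume that the 3 transcripts are captured alike.

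**Figure D2:**
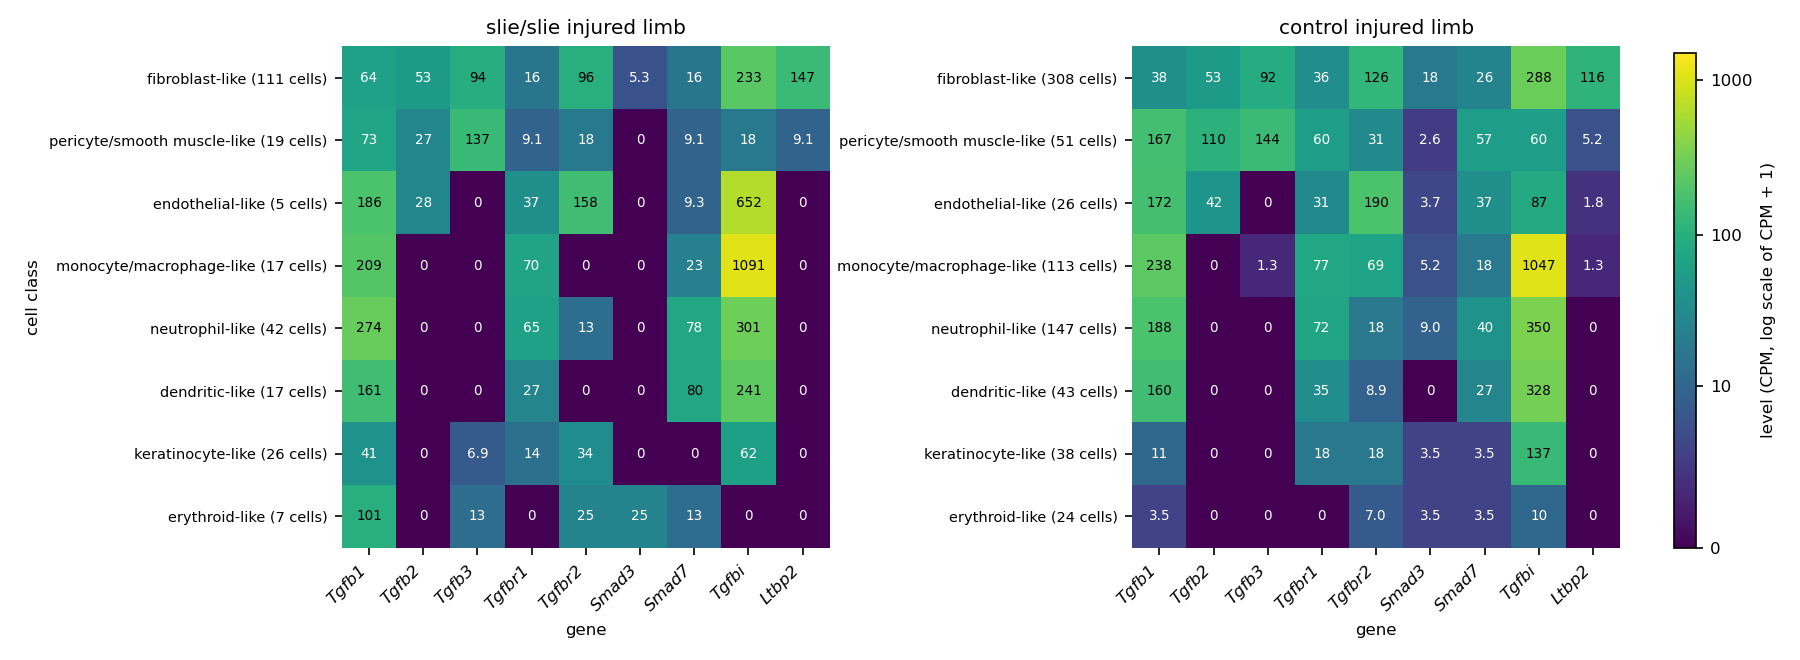
Level in CPM (number and colour, log scale of CPM + 1) of the 9 genes (horizontal axis) in 8 cell classes (vertical axis, with the number of cells) of the slie/slie injured limb (left) and the control injured limb (right). Tgfb1 and Tgfbi stand high in immune classes of both, Tgfb2 and Tgfb3 in fibroblast-like and pericyte or smooth muscle-like cells, and Ltbp2 in fibroblast-like cells.

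The receptors were distributed differently from each other. Tgfbr2 had 158 CPM (92.3 to 254) in the 5 endothelial-like cells of slie/slie injured and 190 CPM (155 to 231) in the 26 of control injured. Fibroblast-like cells followed with 96.2 CPM (67.4 to 133) in slie/slie and 126 CPM (108 to 146) in control, and pericyte or smooth muscle-like cells had 18.3 CPM (2.22 to 66.1) and 31.3 CPM (16.2 to 54.7). Neutrophil-like cells of the injured limbs had 16.7 CPM (5.42 to 38.9), which overlapped pericyte or smooth muscle-like cells at 28.4 CPM (15.6 to 47.7). Tgfbr1 stood instead at 76.6 CPM (58.8 to 98.2) in monocyte or macrophage-like cells of the injured limbs and 70.1 CPM (43.4 to 107) in neutrophil-like cells, against 31.4 CPM (23.7 to 40.8) in fibroblast-like cells. Pericyte or smooth muscle-like cells lay between, at 48.8 CPM (31.2 to 72.6), and overlapped both. Of Smad3 UMIs in the injured limbs, 68.3% were in fibroblast-like cells, at 15.7 CPM (10.4 to 22.7), against 4.94 CPM (1.35 to 12.7) in monocyte or macrophage-like cells. Smad7 had 50.1 CPM (28.0 to 82.6) in neutrophil-like and 46.7 CPM (29.6 to 70.1) in pericyte or smooth muscle-like cells. Dendritic-like cells had 40.0 CPM (14.7 to 87.0), on 6 UMIs, and endothelial-like cells 32.3 CPM (20.0 to 49.4). These intervals overlapped.

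The matrix genes stood highest in different classes of the injured limbs, Tgfbi in monocyte or macrophage-like cells and Ltbp2 in fibroblast-like cells. Tgfbi had 1091 CPM (802 to 1451) in monocyte or macrophage-like cells of slie/slie injured and 1047 CPM (976 to 1122) in those of control injured, with 55.8% of all Tgfbi UMIs of the control injured library in that class and 17.2% of those of the slie/slie injured library. With each cell thinned to 500 UMIs, 46.2% (19.2 to 74.9) of 13 such cells in slie/slie and 38.1% (29.1 to 47.7) of 113 in control held a Tgfbi UMI, against 47.1% (23.0 to 72.2) of 17 and 77.0% (68.1 to 84.4) of 113 before thinning. Thinning left out 4 of the slie/slie cells and none of the control cells. In erythroid-like cells, a class whose leading genes also included the T cell genes Cd3g, Cd2 and Cd3d, Tgfbi had 3 UMIs in 3 of 31 cells of the injured limbs, or 8.19 CPM (1.69 to 23.9), at median depths of 15954 UMIs in slie/slie and 14372 UMIs in control, against 1026 and 3155 UMIs in the monocyte or macrophage-like cells. In the 5 endothelial-like cells of slie/slie injured Tgfbi had 70 UMIs or 652 CPM (508 to 824), 26 of them in 1 cell, against 47 UMIs or 86.7 CPM (63.7 to 115) in the 26 of control injured. Ltbp2 had 147 CPM (111 to 191) in fibroblast-like cells of slie/slie injured and 116 CPM (99.4 to 136) in those of control injured, and fibroblast-like cells held 97.8% of its UMIs in the injured limbs. It had 0 UMIs in neutrophil-like, dendritic-like, keratinocyte-like and erythroid-like cells of both.

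Likeness of pattern was measured with Pearson's r of log2(CPM + 10) over 13 combinations of class and library with at least 20 cells each, among 7037 genes with at least 100 UMIs. The combinations share libraries and differ in depth, so r is a description. Ltbp2 was most like Pdgfra, the gene of a platelet-derived growth factor receptor of mesenchymal cells, and Fbn2, a microfibril gene (r = 0.991 for each). Tgfb1 was most like Nemf (r = 0.946) and Rap1b (r = 0.934), Tgfb2 like Cbx6 (r = 0.971) and Nid1 (r = 0.97), and Tgfb3 like Nfatc4 (r = 0.983) and Pcdh18 (r = 0.979). Tgfbr1 was most like Tfe3 (r = 0.942) and Kpna1 (r = 0.92), Tgfbr2 like Git1 (r = 0.898) and Cnpy4 (r = 0.881), and Tgfbi like Myo9b (r = 0.964) and Gnpda1 (r = 0.91). Among the 9 genes, Tgfb2 and Tgfb3 had r = 0.85 with each other and Tgfb1 and Tgfbr1 r = 0.84. Smad3 had too few UMIs for the measure.

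The first comparison asked how the slie/slie injured limb differed from the control injured limb. Genes with 20 or more UMIs summed over both libraries count as measured, and as higher or lower at a ratio of CPM of at least 1.5-fold after adding 1 count to each sum. Over all filtered cells 0 of the 9 genes were higher and 2 were lower, where 13.8% of the 11313 genes measured were higher and 13% lower. The 2 lower ones were Tgfbr1, at a ratio of 0.524 (0.324 to 0.812), and Smad3, at 0.525 (0.161 to 1.34), whose interval included 1. Tgfbr1 was still past the threshold of 1.5-fold when cells under 0.5% mitochondrial UMIs were left out (log2 ratio of -1.13) and when monocyte or macrophage-like cells were left out (-0.78), but it had a log2 ratio of -0.29 after thinning every cell to 500 UMIs. The median log2 ratio of the 9 genes was -0.39, against 0.04 over all genes measured. Tgfbi had a ratio of 0.761 (0.666 to 0.866) over all cells, on the other side of 1 without monocyte or macrophage-like cells (log2 ratio of 0.27), the class that was 6.91% of cells in slie/slie injured, against 15% in control injured. Ligand ratios were 0.897 (0.717 to 1.11) for Tgfb1, 0.759 (0.483 to 1.15) for Tgfb2 and 1.12 (0.809 to 1.52) for Tgfb3, and all of their intervals included 1.

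In fibroblast-like cells of the injured limbs all 9 genes were measured, 1 was higher and 2 were lower, where 11.8% of 7925 genes were higher and 17.9% lower. Tgfb1 was the higher one, with 24 UMIs or 64.2 CPM in slie/slie against 53 UMIs or 37.6 CPM in control, a ratio of 1.74 (1.04 to 2.85). Tgfbr1 had 6 UMIs or 16.0 CPM in slie/slie against 50 UMIs or 35.5 CPM in control, a ratio of 0.517 (0.198 to 1.14), and Smad3 had 2 UMIs against 26, a ratio of 0.418 (0.081 to 1.36). Both intervals included 1. The class was made of 4 clusters, led by H19, Mest and Timp1 (56 slie/slie and 121 control cells), by Col11a1, Col12a1 and Tnc (21 and 107), by cell cycle genes (22 and 52) and by Meg3 and Kcnq1ot1 (12 and 28). In the same order the median mitochondrial share of these clusters was 0.11%, 4.03%, 0.078% and 0%, and 64 of the 111 slie/slie and 143 of the 308 control cells of the class were under 0.5%. Without those cells Tgfb1 had a log2 ratio of 0.88 and Tgfbr1 -1.15. Median depths were 6092 UMIs in slie/slie and 6514 UMIs in control in the cluster of 21 and 107 cells, and 660.5 and 890 UMIs in the cluster of 56 and 121 cells. Within the cluster of 21 and 107 cells Tgfb1 had 71.3 CPM in slie/slie and 37.2 CPM in control, and Tgfbr1 15 and 36.3 CPM. Within the cluster of 56 and 121 cells Tgfb1 had 2 and 7 UMIs, or 33.8 and 39.6 CPM, and Tgfbr1 had 2 UMIs in each, or 33.8 and 11.3 CPM. With these clusters weighted equally the log2 ratio of Tgfb1 was 0.51, under the threshold (0.52 with all cells weighted equally), and that of Tgfbr1 was 0.16, on the other side of 1. Tgfbi, Tgfbr2, Smad7, Tgfb2, Tgfb3 and Ltbp2 had ratios between 0.712 and 1.28 in the class, and all of those intervals included 1. With all cells weighted equally, however, Ltbp2 had a log2 ratio of -0.76, on the other side of 1 and past the threshold.

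In pericyte or smooth muscle-like cells the ligands other than Tgfb3 were lower in slie/slie injured than in control injured. Of 6 genes measured in 19 slie/slie and 51 control cells, 5 were lower and 0 higher, where 17.6% of 4035 genes were lower and 15.9% higher. Tgfb1 had 8 UMIs or 73.2 CPM (31.6 to 144) in slie/slie and 64 UMIs or 167 CPM (129 to 213) in control, a ratio of 0.485 (0.212 to 0.979). Tgfb2 had 3 UMIs or 27.4 CPM (5.66 to 80.2) in slie/slie and 42 UMIs or 110 CPM (79.1 to 148) in control, a ratio of 0.326 (0.085 to 0.897). The intervals of the ratios of Tgfb1 and Tgfb2 excluded 1 and those of the remaining 3 did not. Those were Tgfbr1 (1 UMI in slie/slie and 23 in control, ratio 0.292, 0.033 to 1.18), Smad7 (1 and 22, ratio 0.305, 0.035 to 1.23) and Tgfbi (2 and 23, ratio 0.438, 0.084 to 1.44). Tgfb3 was level at a ratio of 1.00 (0.536 to 1.77). Of the 8 Tgfb1 UMIs in slie/slie 6 were in 1 cell, and without the 3 deepest cells of each library only 3 genes were measured and 2 of them were lower, Tgfb1 at a log2 ratio of -0.67 and Tgfb2 at -1.08. With every cell weighted equally Tgfb1 had a log2 ratio of -0.47, under the threshold, and Tgfbi -0.50.

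Monocyte or macrophage-like cells numbered 17 in slie/slie and 113 in control, and 4 genes were measured in them. Tgfb1 at a ratio of 0.972 (0.458 to 1.83), Tgfbr1 at 1.19 (0.313 to 3.20) and Tgfbi at 1.06 (0.777 to 1.42) had intervals that included 1, and the median over all 5008 genes measured was a log2 ratio of 0.25. Tgfbr2 had 0 UMIs in slie/slie and 53 in control, or 69.2 CPM (51.8 to 90.5), but 3 counts in the 17 slie/slie cells would be 69.7 CPM, so a difference was not detectable at this depth. It is the 1 gene that counts as lower by the rule, where 16% of genes were lower and 33.9% higher. The class joined a cluster led by Ccr2 and Arg1 (15 slie/slie and 84 control cells) and a cluster led by Ccl8 and complement C1q genes (2 and 29 cells). In the cluster led by Ccr2 and Arg1 Tgfbi had 1238 CPM in slie/slie and 1123 CPM in control. Endothelial-like cells, with 5 in slie/slie injured, were too few to compare.

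**Figure D3:**
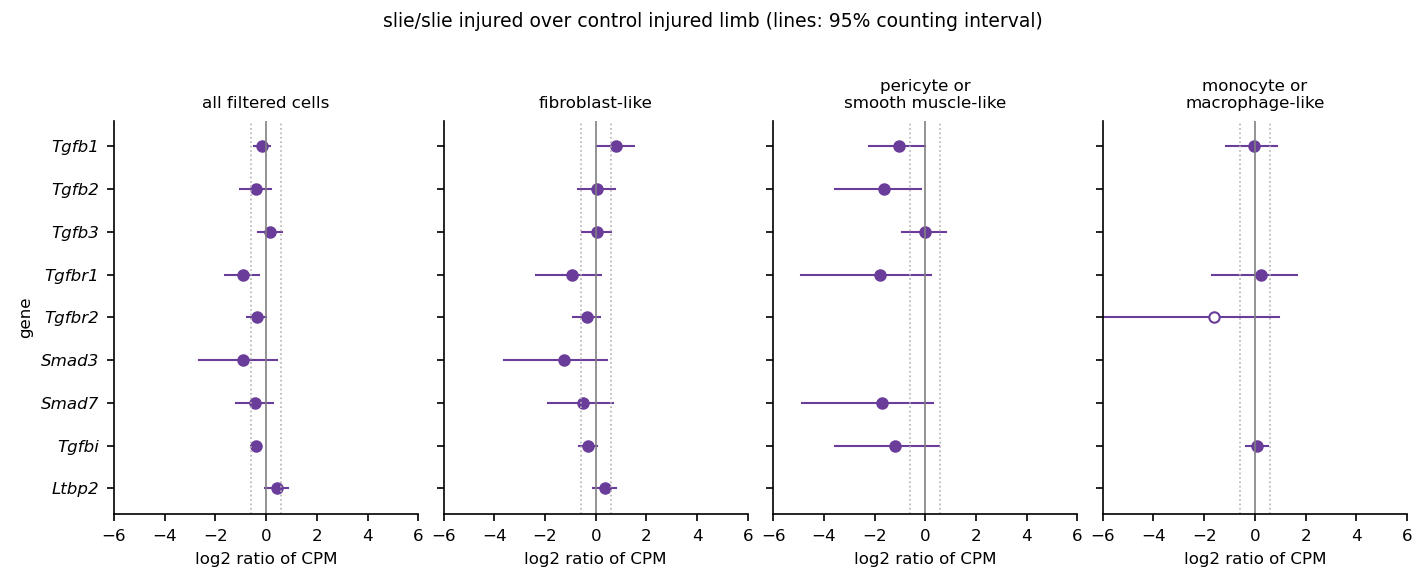
Log2 ratio of CPM (horizontal axis) of slie/slie injured over control injured for the 9 genes (vertical axis) in all filtered cells and 3 cell classes, for genes with at least 20 UMIs over both libraries, with 95% counting intervals as lines and dotted lines at 1.5-fold. Tgfbr1 lies left of the dotted line in 3 of the 4 panels, 5 of 6 measured genes do so in pericyte or smooth muscle-like cells, and the open circle marks a gene with 0 UMIs in slie/slie, whose value rests on the added count.

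The next comparisons asked what differed between the injured and the uninjured limb within each genotype. In slie/slie, 4 of 8 measured genes were higher in the injured limb and 1 was lower, where 20% of 9221 genes were higher and 22.8% lower. The higher ones were Tgfb1 at a ratio of 1.72 (1.25 to 2.38), Tgfb3 at 1.69 (1.08 to 2.68), Tgfbi at 2.14 (1.74 to 2.64) and Ltbp2 at 12.4 (5 to 39.6), and all of those intervals excluded 1. Smad7 was lower at a ratio of 0.62 (0.339 to 1.10). Without the 3 deepest cells of each library Tgfb3 had a log2 ratio of 0.53 and Smad7 -0.51, both under the threshold, while Ltbp2 had 3.68. In control, 5 of 9 measured genes counted as higher and 0 as lower, where 26% of 10959 genes were higher and 31.4% lower. They were Tgfb1 at a ratio of 3.45 (1.74 to 8.04), Tgfbi at 4.56 (2.91 to 7.59), Tgfb3 at 1.63 (0.774 to 4.10), Ltbp2 at 1.70 (0.763 to 4.69) and Smad3, with 37 UMIs in the injured and 0 in the uninjured limb. Smad3 counts through the added count alone: 3 counts in the uninjured limb would be 12.4 CPM, above its 9.17 CPM in the injured limb, so a difference was not detectable at this depth. The intervals of Tgfb1 and Tgfbi excluded 1. The Tgfb1 ratio in control was 0.73 on the log2 scale after thinning, the Tgfbi ratio was 1.49 without called doublets, and Ltbp2 had 0.20 without the 3 deepest cells and 2.65 without called doublets. Tgfb3 had -1.16 after thinning, on the other side of 1. Median log2 ratios of the measured genes were 0.35 in slie/slie and 0.70 in control, against -0.02 and -0.10 over all genes measured. Tgfb2 and Tgfbr2 lay below 1 in both genotypes, with intervals that included 1.

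**Figure D4:**
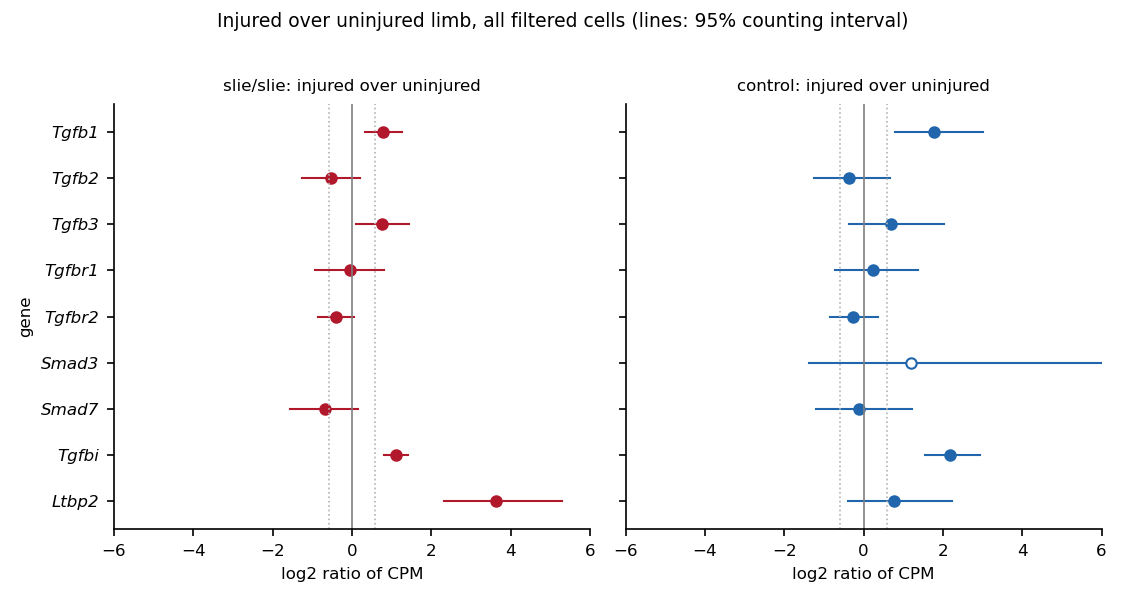
Log2 ratio of CPM (horizontal axis) of the injured over the uninjured limb for the 9 genes (vertical axis) in slie/slie (left) and control (right), over all filtered cells, for genes with at least 20 UMIs over both libraries, with 95% counting intervals as lines and dotted lines at 1.5-fold. Tgfb1, Tgfb3, Tgfbi and Ltbp2 lie right of 1.5-fold in both, and the open circle marks Smad3, with 0 UMIs in control uninjured.

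The make-up of the libraries also differed between the injured and the uninjured limbs. Fibroblast-like cells were 45.1% (38.8 to 51.6) of slie/slie injured cells and 5.43% (2.64 to 9.77) of slie/slie uninjured ones, and 41.0% (37.5 to 44.6) of control injured cells and 5% (1.04 to 13.9) of control uninjured ones. The 15 fibroblast markers, all detected in each library, did not follow these shares in slie/slie: they summed to 18864 CPM in slie/slie injured, 24572 CPM in slie/slie uninjured, 22196 CPM in control injured and 9432 CPM in control uninjured. The unnamed cluster with all 15 of them held 67 of the 184 slie/slie uninjured cells. Of the 11 neutrophil markers 9, 7, 11 and 2 were detected in slie/slie injured, slie/slie uninjured, control injured and control uninjured, with summed levels of 10088, 1414, 7995 and 8.23 CPM. The 15 monocyte or macrophage markers summed to 771 CPM in slie/slie injured, 1091 CPM in slie/slie uninjured, 3496 CPM in control injured and 156 CPM in control uninjured, where 8 of them, Csf1r and Adgre1 included, were at 0. Their part in the ratios was measured only by leaving out the monocyte or macrophage-like class, after which Tgfb1 had a log2 ratio of 1.13 in slie/slie and 1.36 in control, and Tgfbi 0.91 and 1.31. Within the fibroblast-like class, 6 genes were measured between 111 injured and 10 uninjured slie/slie cells. Ltbp2 had 55 UMIs in the injured and 2 in the uninjured limb there, a ratio of 3.28 (1.07 to 16.4), Tgfbi 87 and 3 UMIs, a ratio of 3.87 (1.46 to 14.5), and Tgfb2 20 and 11 UMIs, a ratio of 0.308 (0.145 to 0.687), while the intervals of Tgfb1, Tgfb3 and Tgfbr2 included 1. In this class 15.5% of 3268 genes were higher and 32.4% lower, and 4 of the 6 genes were higher and 2 lower. The higher ones were Tgfbi, Ltbp2, Tgfb3 and Tgfbr2, and the lower ones Tgfb2 and Tgfb1. Tgfb1 had 24 UMIs in the injured and 6 in the uninjured limb there, a log2 ratio of -0.67. Its direction in this class was thus opposite to that over all filtered cells. The 10 uninjured cells held 65812 UMIs, 59253 of them in 2 cells, so these ratios rest on very few cells. The unnamed cluster of 67 slie/slie uninjured cells had 116 Tgfbi UMIs, or 243 CPM, and 1 Ltbp2 UMI in 477172.

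Endothelial-like cells could be compared between the limbs of control, with 26 injured and 17 uninjured cells. Of 6 genes measured 3 were higher and 3 lower, where 26.1% of 4786 genes were higher and 23% lower. Tgfb1 had 93 UMIs or 172 CPM in the injured and 5 UMIs or 49.9 CPM in the uninjured limb, a ratio of 2.90 (1.28 to 8.10). Tgfbi had 47 UMIs in the injured and 0 in the uninjured limb, which was at least 2.90-fold higher against 3 counts. In the 49 endothelial-like cells of slie/slie uninjured Tgfbi had 2 UMIs or 7.72 CPM (0.935 to 27.9). Tgfbr2 had 190 CPM in the injured and 110 CPM in the uninjured limb, a ratio of 1.60 (0.880 to 3.20), while Tgfb2, Tgfbr1 and Smad7 had ratios of 0.634, 0.666 and 0.555 with intervals that included 1. With every cell weighted equally Tgfbr2 had a log2 ratio of -0.48 and Tgfbr1 0.30, both on the other side of 1. Without called doublets Tgfb1 had a log2 ratio of 0.65, and 14 of the doublet calls were in control uninjured. In pericyte or smooth muscle-like cells, 51 injured and 13 uninjured, 5 of 6 measured genes were higher, where 32.9% of 3700 genes were higher and 23.9% lower, and 0 were lower. Tgfb1 stood there with 64 UMIs in the injured and 1 in the uninjured limb, a ratio of 4.78 (1.27 to 40.3). Smad7 and Tgfbi had 0 UMIs in the uninjured limb and were at least 1.08-fold and 1.13-fold higher against 3 counts, and the intervals of Tgfb2 and Tgfb3 included 1. Without the 3 deepest cells Tgfb1 had a log2 ratio of 0.42 in this class, and only 1 of 3 measured genes was higher.

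Between the uninjured limbs, slie/slie over control, 2 of 7 measured genes were higher and 1 lower, where 20.1% of 7490 genes were higher and 20.8% lower. Tgfb1 had a ratio of 1.80 (0.861 to 4.34), Tgfbi 1.62 (0.999 to 2.77) and Tgfbr1 0.640 (0.290 to 1.55), and each interval included 1. Without the 3 deepest cells of each library Tgfbi had a log2 ratio of -0.0074, on the other side of 1, and Tgfb1 0.41, under the threshold. With all barcodes Tgfbr1 had 0.076, also on the other side of 1. All values of control uninjured rested on 60 cells.

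Among 31 further genes of the pathway, chosen by role, most target genes stood higher in the injured limb over all filtered cells. Most of the other receptors stood lower in these sums. In slie/slie, 15 of 29 measured genes were higher in the injured limb and 4 lower, and in control 13 of 30 were higher and 10 lower. Over all genes measured 20% were higher and 22.8% lower in slie/slie, and 26% higher and 31.4% lower in control, so the share of lower genes in control was near that of all genes. Of the 7 further target genes 6 were higher in slie/slie and 4 in control, and none were lower. Postn, a matrix protein of healing tissue, had 1353 CPM in slie/slie injured and 136 CPM in slie/slie uninjured, a ratio of 9.90 (8.36 to 11.8), and 1519 CPM in control injured and 57.6 CPM in control uninjured, a ratio of 24.6 (14.9 to 44.0). Ctgf, a secreted matricellular protein, had ratios of 5.71 (4.53 to 7.27) in slie/slie and 4.56 (2.91 to 7.60) in control. Fn1, fibronectin, had 2.13 (1.85 to 2.45) and 2.50 (2.01 to 3.15), and Cdkn1a, a cell cycle inhibitor, 1.65 (1.34 to 2.04) and 2.28 (1.40 to 4.02). Of the activators of latent ligand, Thbs1 had ratios of 3.62 (2.82 to 4.69) and 4.93 (3.11 to 8.34), and Mmp14, a membrane protease, 2.55 (2.08 to 3.13) and 7.34 (4.36 to 13.5). Within fibroblast-like cells of slie/slie, 5 of 13 measured pathway genes were higher and 2 lower, where 15.5% of all genes were higher and 32.4% lower. The 2 lower genes were Thbs1 and Jun, a transcription factor, each with an interval that excluded 1. Ctgf, Fn1 and Postn were higher, also with intervals that excluded 1. The direction of Thbs1 was thus opposite there, and the uninjured limb gave only 10 of these cells.

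Over all filtered cells, 3 of the 4 other receptors and co-receptors were lower in slie/slie injured than in slie/slie uninjured. In control 4 were lower in the injured than in the uninjured limb. Tgfbr3, the co-receptor betaglycan, had ratios of 0.29 (0.18 to 0.44) in slie/slie and 0.50 (0.33 to 0.80) in control. Acvrl1, a type I receptor of endothelium, had 0.48 (0.28 to 0.77) and 0.31 (0.20 to 0.52), beside endothelial-like shares of 2.03% in slie/slie injured, 26.6% in slie/slie uninjured, 3.46% in control injured and 28.3% in control uninjured. Eng, an endothelial co-receptor, was lower in control at 0.60 (0.40 to 0.93), and Bambi, a decoy receptor, at 0.35 (0.18 to 0.77) in control and 0.63 (0.33 to 1.16) in slie/slie. Within endothelial-like cells of control, however, 2 of the 4 were higher in the injured limb, Tgfbr3 and Eng, and 1 of these intervals excluded 1. Acvrl1 was lower there, with an interval that excluded 1, where 26.1% of all genes were higher and 23% lower. Eng was also higher in pericyte or smooth muscle-like cells of control, with an interval that included 1. The part of the endothelial-like share in the sums was not tested. Over all filtered cells Ltbp4, which tethers latent ligand to the matrix, was lower in both genotypes, at 0.10 (0.05 to 0.16) in slie/slie and 0.18 (0.12 to 0.29) in control. Furin, the protease that cleaves the ligand precursors, was higher at 1.74 (1.20 to 2.52) and, in control against 4 UMIs, 4.20 (1.78 to 13). Nrros, which anchors latent ligand on myeloid cells, had 2.26 (1.09 to 4.94) and 5.75 (1.57 to 47.8), and Ltbp3, a further latent ligand binder, 2.43 (1.42 to 4.28) and 1.69 (0.76 to 4.66). Of the feedback and corepressor genes, Skil had 1.75 (1.26 to 2.44) and 2.68 (1.40 to 5.90), Pmepa1 1.51 (1.28 to 1.78) and 2.32 (1.66 to 3.34), Tgif1 4.94 (2.37 to 11.6) in slie/slie, and Smad6, an inhibitory Smad, 0.20 (0.08 to 0.55) in control. Snai2, a transcription factor, was higher in slie/slie injured at 2.24 (1.20 to 4.36).

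**Figure D5:**
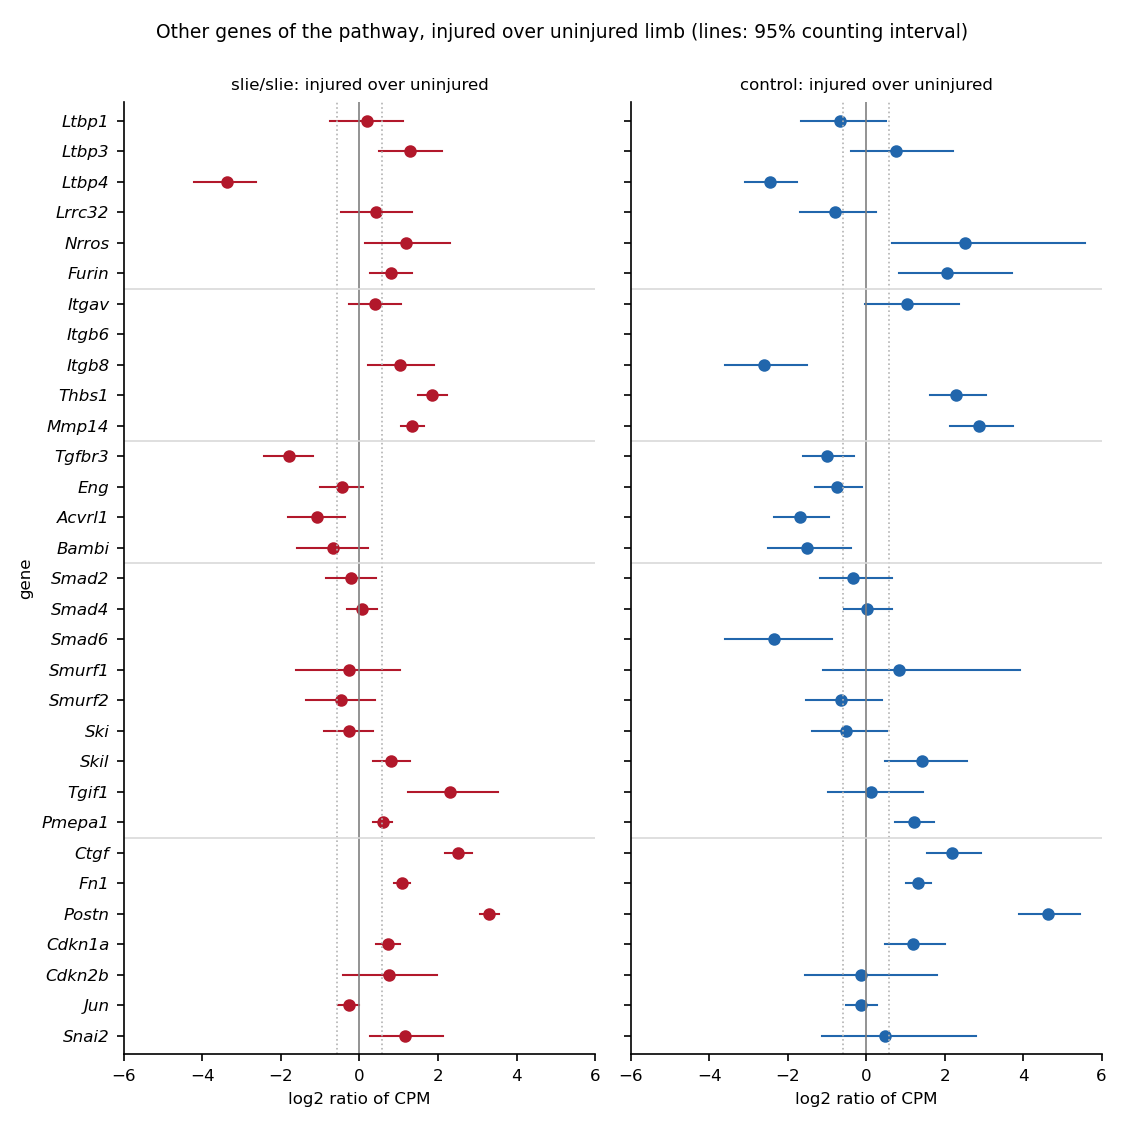
Log2 ratio of CPM (horizontal axis) of the injured over the uninjured limb for 31 further genes of the pathway (vertical axis) in slie/slie (left) and control (right), over all filtered cells, for genes with at least 20 UMIs over both libraries. Grey lines part, from top to bottom, latent complex and processing, activators, receptors and co-receptors, Smads and regulators, and target genes; lines through points are 95% counting intervals and dotted lines 1.5-fold, and the target genes lie mostly to the right and the receptors to the left in both panels.

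Between the injured limbs 3 of 30 measured pathway genes were higher in slie/slie and 3 lower, where 13.8% of all genes measured were higher and 13% lower, so both shares were no larger than those of all genes. Their median log2 ratio was -0.09, against 0.04 over all genes. Cdkn1a had 232 CPM in slie/slie injured and 150 CPM in control injured, a ratio of 1.55 (1.33 to 1.81), and Snai2 31.7 and 17.1 CPM, a ratio of 1.88 (1.20 to 2.88). Itgb8, an integrin subunit that activates latent ligand, had a ratio of 4.59 (2.81 to 7.56), but 31 of its 37 UMIs in slie/slie injured came from 1 cell. Lower were Nrros at 0.52 (0.33 to 0.79), Tgfbr3 at 0.56 (0.36 to 0.83) and Smad6, with 1 UMI in slie/slie and 22 in control, at 0.35 (0.04 to 1.40). Nrros is a myeloid gene and stood beside the smaller share of monocyte or macrophage-like cells in slie/slie injured, whose part in its ratio was not tested. In fibroblast-like cells 5 of 27 measured pathway genes were higher and 5 lower, where 11.8% of all genes were higher and 17.9% lower. Ctgf had 960 CPM in slie/slie and 456 CPM in control there, a ratio of 2.11 (1.85 to 2.40), Thbs1 281 and 639 CPM, a ratio of 0.443 (0.359 to 0.542), and Tgfbr3 45.5 and 104 CPM, a ratio of 0.461 (0.266 to 0.754), and the intervals of the remaining 7 included 1. In pericyte or smooth muscle-like cells Ctgf had 19 UMIs or 174 CPM in slie/slie and 555 UMIs or 1450 CPM in control, a ratio of 0.126 (0.076 to 0.197), and Postn 1208 and 2176 CPM, a ratio of 0.559 (0.462 to 0.672). Ctgf therefore had opposite directions in the fibroblast-like and the pericyte or smooth muscle-like cells of the same libraries, and the difference between the classes was not tested. Furin was higher in the pericyte or smooth muscle-like cells at 1.97 (0.768 to 4.74), and the remaining 13 of the 16 genes measured there lay within 1.5-fold. Thbs1, lower in fibroblast-like cells, was higher in slie/slie neutrophil-like cells (log2 ratio of 2.49) and monocyte or macrophage-like cells. Both of these intervals excluded 1. Cdkn1a was higher in fibroblast-like and neutrophil-like cells, with an interval that excluded 1 only in the latter. By the same rule Cdkn1a was lower in the keratinocyte-like class, the dendritic-like class and the monocyte or macrophage-like class. These differences between classes were not tested either.

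Between the uninjured limbs 6 of 24 measured pathway genes were higher in slie/slie and 6 lower, near the 20.1% higher and 20.8% lower of all genes measured. The higher ones whose intervals excluded 1 were Postn at 2.21 (1.30 to 4.05), Mmp14 at 2.20 (1.27 to 4.13), Cdkn1a at 2.14 (1.28 to 3.85) and Pmepa1 at 1.58 (1.11 to 2.32), with 14, 13, 15 and 34 UMIs in control uninjured. The lower ones were Itgb8 at 0.37 (0.17 to 0.83), Lrrc32, which anchors latent ligand on the cell surface, at 0.42 (0.19 to 0.97), Acvrl1 at 0.57 (0.35 to 0.99) and Eng at 0.58 (0.37 to 0.94). The comparisons of the injured limbs between genotypes and of the limbs within each genotype share libraries, so their ratios are not independent of each other.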

How the data were processed

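Single-cell 3' gene expression libraries, 1 for each of 4 groups with tissue of 2 mice pooled in each, were analysed. The authors deposited whole-number UMI counts, not normalized, in matrices whose file headers name Cell Ranger 5.0.1. The build is mm10 per the submitters' processing notes, and gene positions are from GENCODE M21. All libraries were clustered together (scanpy 1.11.5, leidenalg 0.10.2, 2000 variable genes without the 9 genes and the pathway list, 30 principal components, 15 neighbours, resolution 1). Clusters were named from marker lists, needing at least 3 markers detected in at least 20% of cells. Each marker also had to reach at least 2 times its median level over clusters. A name further needed a marker among the 10 leading genes, or at least 5 markers. It was withheld where another class had more leading or more supporting markers. Called doublets (Scrublet: 2 in slie/slie injured, 4 in slie/slie uninjured, 0 in control injured, 14 in control uninjured) were kept. UMIs were summed per class and library, and 1 count was added to each sum for ratios; no p-value was computed. Genes named are the 9, Ddr2, the pathway genes past 1.5-fold with an interval that excludes 1 and those past 1.5-fold where a count covers them, plus the 2 most like in pattern to each of the 9, except that 1 gene of the pathway list and the like patterns of Smad7 are not reported here. The 9 genes, the pathway list and the markers were chosen with earlier results of these data known. The comparisons within endothelial-like and pericyte or smooth muscle-like cells were added after seeing the data. One barcode sequence was shared between control injured and control uninjured, and none among filtered cells. The ratios were tested on simulated counts of 1200 genes in each comparison, of which only a part had a true change. For slie/slie injured over control injured, true log2 ratios of 2 and -2 were recovered as medians of 1.96 and -1.89. For control injured over control uninjured they were recovered as 1.66 and -2.12, and 0 as -0.15, since the added count weighs more in 60 cells. The counts were drawn as Poisson from summed libraries, so UMIs gathered in single cells were not simulated. Promoter sequences are from RefSeq (GRCm38.p6). Tools were Python 3.11.15, scipy 1.17.1, numpy 2.4.6, matplotlib 3.10.9, R 4.3.3 and edgeR 4.0.16, the last for TMM factors as an alternative scaling. Other alternatives were the cell filters, the cells weighted equally, thinned or without the 3 deepest, and the minimum of UMIs.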

Additional observations from a re-analysis of the deposited data

Results flagged for a closer look

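Itgb8, an integrin subunit that activates latent TGF-beta, stood out because its injury ratio ran in opposite directions in the 2 genotypes: the log2 ratio of injured over uninjured was 1.04 in slie/slie and -2.59 in control. The difference between the genotypes was not tested, since each group is 1 library. Itgb8 had 37 UMIs in slie/slie injured, 31 of them in 1 of 5 cells with any, and 19 UMIs in 12 cells of slie/slie uninjured. The higher ratio in slie/slie, and with it the opposite direction, therefore rested on 1 cell. In control it had 32 UMIs in 24 cells of the injured limb, 27 of them in fibroblast-like cells, and 11 UMIs in 6 cells of the uninjured limb.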

How the results depend on the processing

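No paired analysis was possible because each group is 1 library and the labels give no replicate numbers; for the same reason no replicate could be left out. The number of the 9 genes past 1.5-fold, in either direction, was recomputed under each alternative, and the counts that moved by over 1.5 times were these. For slie/slie injured over control injured in all cells (2), it was 6 with all barcodes, 5 with cells weighted equally and 1 with cells thinned to 500 UMIs. For slie/slie injured over uninjured (5) it was 1 after thinning. For control injured over uninjured (5) it was 8 with all barcodes and 3 with a mitochondrial limit of 10%. For the uninjured limbs (3) it was 0 after thinning and 5 with no minimum of UMIs. In fibroblast-like cells (3) it was 0 after thinning. In monocyte or macrophage-like cells (1) it was 2 with cells weighted equally, 0 after thinning, 2 without the 3 deepest cells, 2 with a minimum of 10 UMIs and 5 with no minimum. In pericyte or smooth muscle-like cells it was 0 after thinning and 2 without the 3 deepest cells for slie/slie over control (5), and 0, 1 without the 3 deepest cells and 8 with no minimum for control injured over uninjured (5). In endothelial-like cells (6) it was 0 after thinning and 3 without the 3 deepest cells. Thinning left at most 5 of the 9 genes measured in any comparison, so fewer genes could count; the cause of the other moves was not tested. The alternatives that leave out or reweight classes and clusters, and all of those in pericyte or smooth muscle-like and endothelial-like cells, were chosen after seeing the data. Of the log2 ratios past 1.5-fold, those that changed sign were Tgfb3 in control injured over uninjured after thinning (-1.16), Tgfbr1 (0.076, all barcodes) and Tgfbi (-0.0074, without the 3 deepest cells) between the uninjured limbs, Tgfbr1 in fibroblast-like cells with clusters weighted equally (0.16), and, in endothelial-like cells with cells weighted equally, Tgfbr1 (0.30) and Tgfbr2 (-0.48). Of 804 single-gene values, 763 stayed within the interval of the value reported. Sign changed in these 6 of the 431 that started past 1.5-fold and in 57 of the 373 that did not, Tgfbi between the injured limbs without monocyte or macrophage-like cells (0.27) among them. With all barcodes the median log2 ratio of all genes was -0.34 for slie/slie injured over control injured, 0.63 for control injured over uninjured and 0.44 between the uninjured limbs, against 0.04, -0.10 and -0.02 in filtered cells, so counts with all barcodes are relative to those shifts. TMM factors shifted the median by over 0.1 in control injured over uninjured (to 0.09), in monocyte or macrophage-like cells (to -0.07, against 0.25), and in the control limbs' pericyte or smooth muscle-like (0.33, against 0.11) and endothelial-like cells (0.18, against 0.04). At a Leiden resolution of 0.5 the monocyte or macrophage-like cluster got no name and gave no value. The 60 cells of control uninjured set the depth limit.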
